A study of Mus musculus with 7 samples.

Results

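Imprinted genes known as regulators of growth, 10 in all, were followed in RNA sequencing of the mouse uterus: H19, Meg3, Dlk1, Peg3, Mest, Plagl1, Ndn, Grb10, Cdkn1c and Sgce. They were taken by gene symbol from the 31274 rows of the deposited expression table, and all 10 had a row. The uteri came from intact CD-1 mice, an outbred stock, that were 2 months old and had received no treatment. The estrus group held 3 libraries and the diestrus group held 4, and no label states that the libraries are of separate animals. P-values therefore describe only how these libraries vary, which may be technical. The study asked how gene expression depends on the estrous cycle.

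An imprinted gene is expressed mainly from the copy inherited from one parent. Imprinted genes lie in clusters that share a methylated control region, and many of them act on fetal growth: copies expressed from the father tend to promote it and copies expressed from the mother tend to restrain it. Several are abundant in the fetus and fall silent in most tissues after birth. H19, Meg3, Grb10 and Cdkn1c are known as maternally expressed in most mouse tissues, and Dlk1, Peg3, Mest, Plagl1, Ndn and Sgce as paternally expressed. The table sums both parental copies, so nothing in it bears on which copy was transcribed. In the uterus, estrus comes after estradiol has peaked and diestrus is dominated by progesterone, and Cdkn1c is known in this tissue from stromal cells that turn into decidua.

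Levels are given in FPKM, a fragment number scaled by transcript length and by library size, so that genes can be compared per length. FPKM carry no read counts, so absolute depth was unknown. Relative depth, read from the spacing of low values, spanned 0.920 to 1.36 times that of estrus replicate 1. The FPKM of all rows summed to 677344 to 731457 at estrus and 471379 to 583079 at diestrus. The part of this difference in the fold changes below was not tested. Spearman correlations across genes were 0.916 to 0.974 within a stage and 0.820 to 0.919 between stages. Whole uterus mixes epithelium, stroma, muscle and vessels, and in such bulk samples fewer cells of a type and less RNA per cell cannot be told apart. Epithelium markers summed to 3449 to 3972 FPKM at estrus and 1039 to 1449 FPKM at diestrus, stroma markers to 4253 to 5627 and 3459 to 6216 FPKM, and endothelium markers to 195 to 236 and 314 to 698 FPKM. No marker of these lists or of the smooth muscle list was at 0 in all libraries. Of 12 tested epithelium markers 9 rose and none fell, of 14 stroma markers 1 rose and 6 fell, of 10 endothelium markers none rose and all 10 fell, and of 10 smooth muscle markers 1 rose and 1 fell. Mesothelium markers summed to 44.7 to 68.8 FPKM at estrus and 91.6 to 183.7 FPKM at diestrus (3 of 5 fell), and lymphocyte markers to 10.6 to 12.4 and 12.2 to 27.4 FPKM (of 5 tested, 1 rose and 4 fell). Of all tested genes 17.2% rose and 14% fell. The part of these marker changes in the results below was not tested.

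Cdkn1c, Mest, Peg3 and Plagl1 fell at estrus, and none of the growth regulators rose. Among the 8 tested members Cdkn1c showed the largest change, with an estrus mean 0.214 times the diestrus mean, and Mest followed at 0.424 times. Grb10 and Meg3 stood at similar means in both stages, Ndn and Sgce had lower means at estrus but did not pass, and H19 and Dlk1 were close to 0 throughout. The 8 tested members were all above 1 FPKM in all 7 libraries. The 4 that fell are 4 of 8, against 14% of all 13920 tested genes that fell and 17.2% that rose (31.1% changed in either direction), by limma on log2(FPKM + 1) with a Benjamini-Hochberg adjusted p under 0.05. The members' median log2 fold change, estrus minus diestrus, was -0.48 on the log2(FPKM + 1) scale, against 0.05 over all tested genes.

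Those calls depended on which libraries entered the fit. Without estrus replicate 2, limma called none of the 8 members, with 4 at an unadjusted p under 0.05, and the share of all genes that fell was 4.2%. Without estrus replicate 1 only Mest fell, while the share of all genes was 8.04%. Without estrus replicate 3, Mest and Peg3 fell (share of all genes 10.4%), and without diestrus replicate 4, Cdkn1c and Mest did (8.31%). Without diestrus replicate 1 the same 4 genes fell (17.7%). Without diestrus replicate 2, Cdkn1c, Mest and Peg3 fell (11%), and without diestrus replicate 3 these genes and Ndn did (10.4%). The sign of the fold change of the 4 genes stayed negative in each of these fits.

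The members covered a wide range of levels. Grb10 was highest, with a mean over the 7 libraries of 54.1 FPKM, above 92.8% of the 21444 rows that were above 0 in any library. Cdkn1c (30.8 FPKM), Sgce (28.5 FPKM) and Ndn (21.6 FPKM) came next, then Mest (10.5 FPKM) and Plagl1 (10.3 FPKM). Meg3 (6.87 FPKM) and Peg3 (2.09 FPKM) were lower, and Dlk1 (0.115 FPKM) and H19 (0.00556 FPKM) were last. These means pool both stages, and the order differed between them: Cdkn1c came after Grb10, Sgce and Ndn at estrus (9.95 FPKM) and was next to Grb10 at diestrus (46.4 FPKM). That diestrus mean includes 102.6 FPKM in replicate 2. Cdkn1c was above Sgce in diestrus replicates 1 and 2, and below it in replicates 3 and 4 (19.1 and 27.7 against 27.4 and 39.2 FPKM). From Grb10 down to Peg3, each gene's range over the 7 libraries overlapped that of its neighbour in the order. These ranges pool both stages and do not compare genes within a library. At estrus Grb10 (37.2 to 70.5 FPKM) lay above Cdkn1c (8.50 to 11.1 FPKM), and Ndn (17.2 to 17.9 FPKM) above Mest (5.27 to 7.20 FPKM). At diestrus both of these pairs overlapped. Peg3 at its highest, 3.01 FPKM, overlapped only with the 1.87 FPKM of Meg3 in diestrus replicate 2, and Dlk1 and H19 stayed below every value of Peg3.

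**Figure D1:**
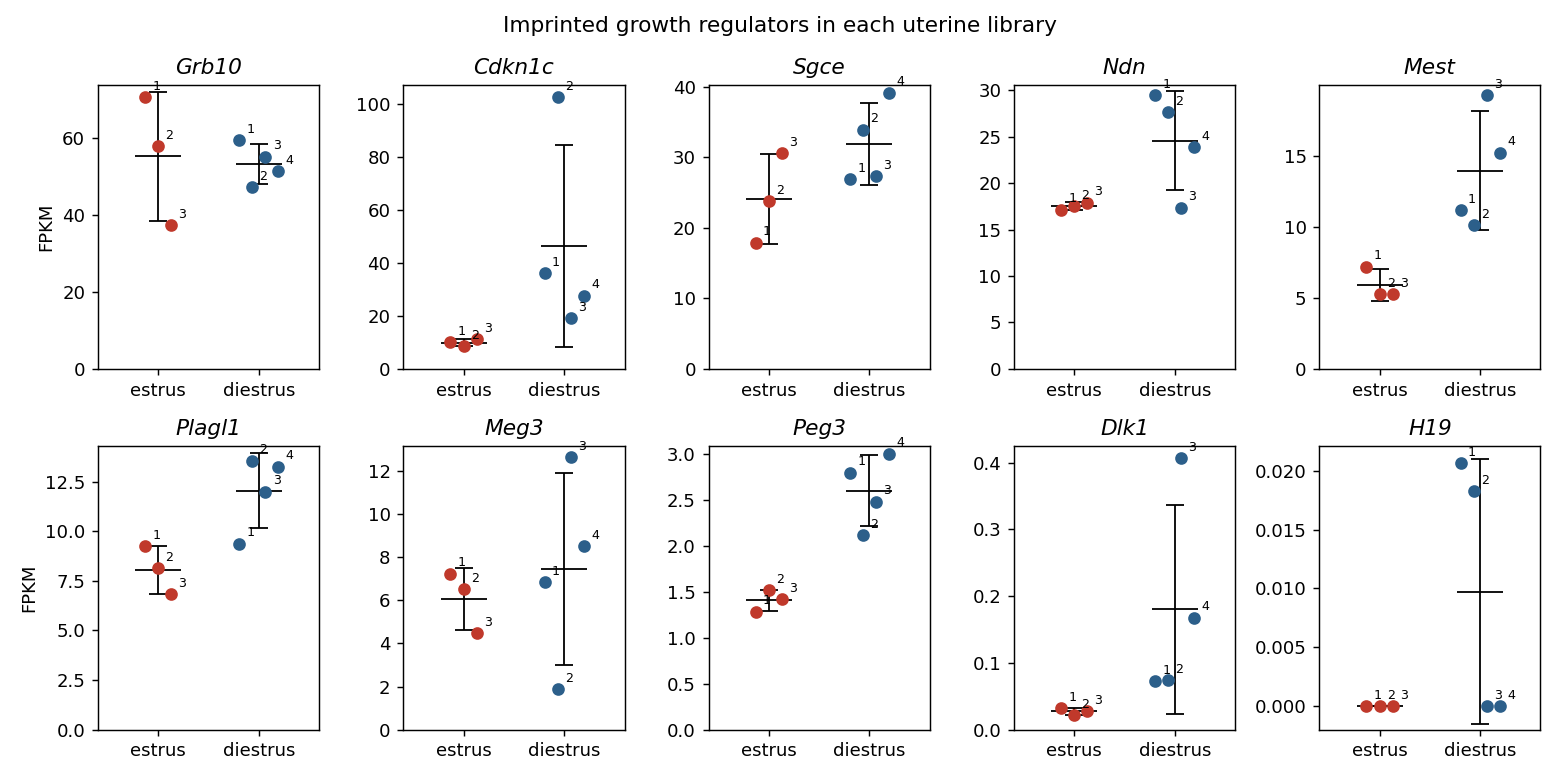
FPKM of the 10 imprinted growth regulators in each library, estrus left and diestrus right in each panel, with replicate numbers beside the points and the mean and SD as horizontal line and bar (n = 3 and 4). Each vertical axis has its own scale; the estrus points of Cdkn1c, Mest, Peg3, Plagl1 and Dlk1 all lie below the diestrus points, while those of Grb10, Meg3, Ndn, Sgce and H19 overlap.

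Cdkn1c encodes p57Kip2, an inhibitor of cyclin-dependent kinases that holds cells in G1 (GRCm38 chr7:143458339-143461050, protein-coding). It stood at 10.2, 8.50 and 11.1 FPKM in estrus replicates 1 to 3, against 36.2, 102.6, 19.1 and 27.7 FPKM in diestrus replicates 1 to 4. Diestrus replicate 2 stood far above the other diestrus libraries, and the stages did not overlap. The mean was 9.95 ± 1.33 FPKM at estrus (SD, n = 3) and 46.4 ± 38.1 FPKM at diestrus (SD, n = 4), and the log2 fold change was -1.83 (SE 0.50, limma adjusted p = 0.0296). A two-sided exact permutation over the 35 ways to assign the libraries gave p = 0.0571. Its diestrus values spanned 5.38-fold, and on the log2 scale their SD was larger than that of 97.5% of tested genes. Without diestrus replicate 2 the log2 fold change was -1.35 (limma adjusted p = 0.0123). The fall was not called without estrus replicate 1, 2 or 3 (adjusted p = 0.0769, 0.107 and 0.0603), or with no filter on low values (0.0544).

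Diestrus replicate 2, the library with the most Cdkn1c, also had the highest sum of the ovary and oviduct markers, 83.4 FPKM, against 22.4 to 24.4 FPKM at estrus and 29.2 to 35.6 FPKM in the other diestrus libraries. Most of that sum was Ovgp1, the oviduct glycoprotein, at 53.2 FPKM in that library, against 8.67 to 19.5 FPKM in the other diestrus libraries. Star, which carries cholesterol into mitochondria for steroid synthesis, was also highest there, at 13.3 FPKM against 3.60 to 9.54 FPKM. Foxl2 and Inha were not: Foxl2 stood at 15.8 FPKM there, against 9.34 to 19.5 FPKM in the other diestrus libraries, and Inha at 1.11 FPKM, below the 1.15 to 1.59 FPKM of the others. Of the 4 tested markers of this list 3 fell and none rose, where 14% of all tested genes fell and 17.2% rose. Cyp19a1, the aromatase of granulosa cells, was listed at 0 in all 4 diestrus libraries. Macrophage and dendritic cell markers were also highest there, at a sum of 1126 FPKM, against 280 to 410 FPKM at estrus and 450 to 933 FPKM in the other diestrus libraries; of 9 tested, 1 rose and 5 fell. The part of either in the Cdkn1c values was not tested.

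Mest encodes a membrane protein of the alpha/beta hydrolase fold that is known from fat cells as they enlarge (chr6:30723547-30748465, protein-coding). It stood at 7.20, 5.28 and 5.27 FPKM in estrus replicates 1 to 3, against 11.2, 10.1, 19.3 and 15.2 FPKM in diestrus replicates 1 to 4. Every estrus library was below every diestrus library. The means were 5.92 ± 1.11 FPKM at estrus (SD, n = 3) and 13.9 ± 4.16 FPKM at diestrus (SD, n = 4), and the log2 fold change was -1.08 (SE 0.23, limma adjusted p = 0.013; exact permutation p = 0.0286, the smallest that 35 assignments allow). Mest was called in 6 of the 7 fits that leave out 1 library, the exception being the one without estrus replicate 2 (adjusted p = 0.0635). It overlaps Copg2 on the other strand by 912 bases, and whether the fragments were assigned by strand is not given in the sources used here, so reads of the shared stretch cannot be told apart. The same holds for Cdkn1c, Ndn, Meg3 and Plagl1. They overlap antisense or noncoding genes with no row in the table by 892, 3694, 3096 and 237 bases. For Ndn the overlap spans the whole gene. Mest also overlaps such a gene, by 896 bases.

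Adipocyte markers were highest in the library that had the most Mest. Their sum was 7.44 to 49.9 FPKM at estrus and 28.7 to 133 FPKM at diestrus, where diestrus replicate 3 was highest, as it was for Mest, Meg3 and Dlk1. None of the 5 markers passed the test and none was at 0, and Adipoq, the fat cell hormone adiponectin, reached 18.3 FPKM in diestrus replicate 3, against 4.12 to 7.45 FPKM in the other diestrus libraries. Diestrus replicate 2 had an adipocyte sum of 28.7 FPKM and 10.1 FPKM of Mest, and estrus replicates 2 and 3 had sums of 40.9 and 49.9 FPKM and 5.28 and 5.27 FPKM of Mest. The part of these markers in the Mest values was not tested.

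Peg3 encodes a large zinc finger protein known from maternal behaviour and from stem cells of muscle (chr7:6703892-6730431, protein-coding). It stood at 1.29, 1.52 and 1.42 FPKM in estrus replicates 1 to 3, against 2.80, 2.12, 2.49 and 3.01 FPKM in diestrus replicates 1 to 4. The stages did not overlap and both were tight. The log2 fold change was -0.58 (SE 0.14, limma adjusted p = 0.0199; exact permutation p = 0.0286), and, since its level was near the pseudocount of 1, this understates the change in FPKM, which was 0.541 times between the means. Peg3 was not called without estrus replicate 1 or 2 or diestrus replicate 4 (adjusted p = 0.0652, 0.075 and 0.0542), nor after quantile normalization (0.0714).

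Plagl1 encodes a zinc finger transcription factor that is known to regulate other imprinted genes, Igf2, H19, Cdkn1c and Dlk1 among them (chr10:13060504-13131694, protein-coding). It stood at 9.24, 8.13 and 6.83 FPKM in estrus replicates 1 to 3, against 9.37, 13.6, 11.99 and 13.3 FPKM in diestrus replicates 1 to 4. Estrus replicate 1 and diestrus replicate 1 were almost level, so the stages were separated by a small gap. The means were 8.07 ± 1.21 FPKM at estrus (SD, n = 3) and 12.04 ± 1.91 FPKM at diestrus (SD, n = 4), and the log2 fold change was -0.52 (SE 0.16, limma adjusted p = 0.046; exact permutation p = 0.0571). The call was lost in 6 of the 7 fits that leave out 1 library (adjusted p from 0.0597 to 0.135), all but the one without diestrus replicate 1 (0.0149), and with no filter (0.0676).

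Promoters of 3 of the genes that fell, from 250 bases before to 50 after the start of transcription, are shown because these genes moved in the same direction. They come from RefSeq on GRCm38.p6, where 7 of the 10 members had an entry, and capitals mark letters found by the search described after them. Peg3 is chr7:6730370-6730669 on the minus strand, Mest is chr6:30737800-30738099 on the plus strand, one of 3 starts listed for it, and Plagl1 is chr10:13090582-13090881 on the plus strand.
Peg3: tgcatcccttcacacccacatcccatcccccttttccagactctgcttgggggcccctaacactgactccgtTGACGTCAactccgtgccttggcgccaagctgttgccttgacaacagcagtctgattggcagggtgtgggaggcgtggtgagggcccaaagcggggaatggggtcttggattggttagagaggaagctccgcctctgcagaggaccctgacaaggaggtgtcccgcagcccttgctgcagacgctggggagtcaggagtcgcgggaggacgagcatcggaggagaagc
Mest: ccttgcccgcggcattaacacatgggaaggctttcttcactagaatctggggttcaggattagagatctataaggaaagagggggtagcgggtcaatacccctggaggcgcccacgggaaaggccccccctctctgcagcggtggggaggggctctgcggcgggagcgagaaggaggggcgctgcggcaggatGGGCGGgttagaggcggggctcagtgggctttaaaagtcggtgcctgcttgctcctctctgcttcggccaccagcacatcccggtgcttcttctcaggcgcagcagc
Plagl1: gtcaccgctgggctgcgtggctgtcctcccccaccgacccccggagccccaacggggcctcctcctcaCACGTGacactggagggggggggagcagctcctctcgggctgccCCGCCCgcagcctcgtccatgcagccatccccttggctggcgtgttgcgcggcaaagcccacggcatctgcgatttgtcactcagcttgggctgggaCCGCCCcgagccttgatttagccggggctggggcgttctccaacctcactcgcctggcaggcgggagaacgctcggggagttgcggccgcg
The search covered both strands for the palindromic estrogen response element (GGTCA and TGACC with any 3 bases between), the palindromic progesterone response element (AGAACA and TGTTCT with any 3 bases between), the hypoxia element core ACGTG, the cyclic AMP response element TGACGTCA and the GC box GGGCGG. Of 32851 promoters of the same length these were present in 0.070%, 0.00913%, 19.6%, 1.79% and 35.7%. Neither hormone element was found in any promoter of the 7 members with an entry. H19, Cdkn1c and Sgce had no entry and were not searched. Peg3 held TGACGTCA, starting 178 bases before the start, and the first promoter of Meg3 also held it. Mest held a GC box, starting 57 bases before the start. Plagl1 held 2 GC boxes and a palindrome that holds ACGTG on each strand, so that these 2 matches overlap. CpG dinucleotides, the sites of methylation at imprinted control regions, numbered 13 in Peg3, 17 in Mest and 26 in Plagl1. Over all promoters the median was 7, with quartiles of 3 and 20. The other Mest starts held 8 and 17. Of the other members, Grb10 held 45 and 9 at its starts, Meg3 13 and 1, Ndn 11 and Dlk1 9. These are matches of letters and not measured binding or methylation.

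Ndn, Sgce, Grb10 and Meg3 were expressed at both stages and did not pass. Ndn encodes necdin, a MAGE family protein that restrains proliferation (chr7:62346569-62350262, protein-coding). It stood at 17.2, 17.6 and 17.9 FPKM in estrus replicates 1 to 3, against 29.5, 27.7, 17.4 and 23.9 FPKM in diestrus replicates 1 to 4. The estrus libraries were almost equal, and diestrus replicate 3 lay among them while the other diestrus libraries were higher. The log2 fold change was -0.44 (SE 0.18, limma adjusted p = 0.0982), and it was -0.59 with an adjusted p of 0.0218 without diestrus replicate 3. Sgce encodes epsilon-sarcoglycan, a membrane protein of the dystrophin-associated complex (chr6:4674350-4747207, protein-coding). It stood at 17.9, 23.7 and 30.6 FPKM in estrus replicates 1 to 3, against 26.9, 33.9, 27.4 and 39.2 FPKM in diestrus replicates 1 to 4. The stages overlapped (log2 fold change -0.40, SE 0.21, limma adjusted p = 0.170).

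Grb10 encodes an adaptor that binds the insulin and IGF1 receptors and dampens their signal (chr11:11930508-12038683, protein-coding). It stood at 70.5, 57.7 and 37.2 FPKM in estrus replicates 1 to 3, against 59.4, 47.2, 55.0 and 51.4 FPKM in diestrus replicates 1 to 4. The estrus libraries spread on both sides of the diestrus range. The means were 55.1 ± 16.8 FPKM at estrus (SD, n = 3) and 53.3 ± 5.19 FPKM at diestrus (SD, n = 4), and the log2 fold change was 0.01 (SE 0.21, limma adjusted p = 0.983), whose sign turned under median-ratio scaling (-0.04) and quantile normalization (-0.21). Meg3, a long noncoding RNA that restrains growth in cultured human tumour cells (chr12:109541001-109571726, lincRNA), stood at 7.23, 6.53 and 4.47 FPKM in estrus replicates 1 to 3, against 6.85, 1.87, 12.6 and 8.51 FPKM in diestrus replicates 1 to 4. The diestrus libraries enclosed the estrus range, with replicate 2 lowest and replicate 3 highest of all 7. Its diestrus SD on the log2 scale was larger than that of 97.1% of tested genes, and its log2 fold change was -0.08 (SE 0.49, limma adjusted p = 0.917), from -0.53 without diestrus replicate 2 to 0.22 without diestrus replicate 3. Meg3 was lowest in the library where Cdkn1c was highest.

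H19 and Dlk1 did not reach the filter of 1 FPKM in at least 3 libraries and were not tested across genes. H19, the noncoding RNA expressed opposite Igf2 and the host of a microRNA (chr7:142575529-142578143, lincRNA), was listed at 0 in all 3 estrus libraries. At diestrus it was listed at 0.0206 and 0.0183 FPKM in replicates 1 and 2 and at 0 in replicates 3 and 4. It is the lowest member by far, and no fold change is given for it. Dlk1, a membrane protein with EGF-like repeats that holds fat cell precursors undifferentiated (chr12:109452823-109463336, protein-coding), was listed at 0.0325, 0.0223 and 0.0283 FPKM in estrus replicates 1 to 3, against 0.0724, 0.0737, 0.406 and 0.168 FPKM in diestrus replicates 1 to 4. The stages did not overlap, and diestrus replicate 3, the library with the highest adipocyte marker sum, had the most. An exact permutation on log2(FPKM + 1) gave p = 0.0857 for Dlk1. With Dlk1 counted, 5 of the 10 members had estrus values that were all below the diestrus values, and none the reverse. Of the 8 tested members this held for 4, against 18.7% of all tested genes.

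Of the maternally expressed members, 3 were tested, of which Cdkn1c fell, and their median log2 fold change was -0.08. Of the paternally expressed members, 5 were tested, all with negative log2 fold changes and a median of -0.52, and Mest, Peg3 and Plagl1 fell. Over all tested genes 46.8% had negative values. Whether the 2 classes differ was not tested.

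**Figure D2:**
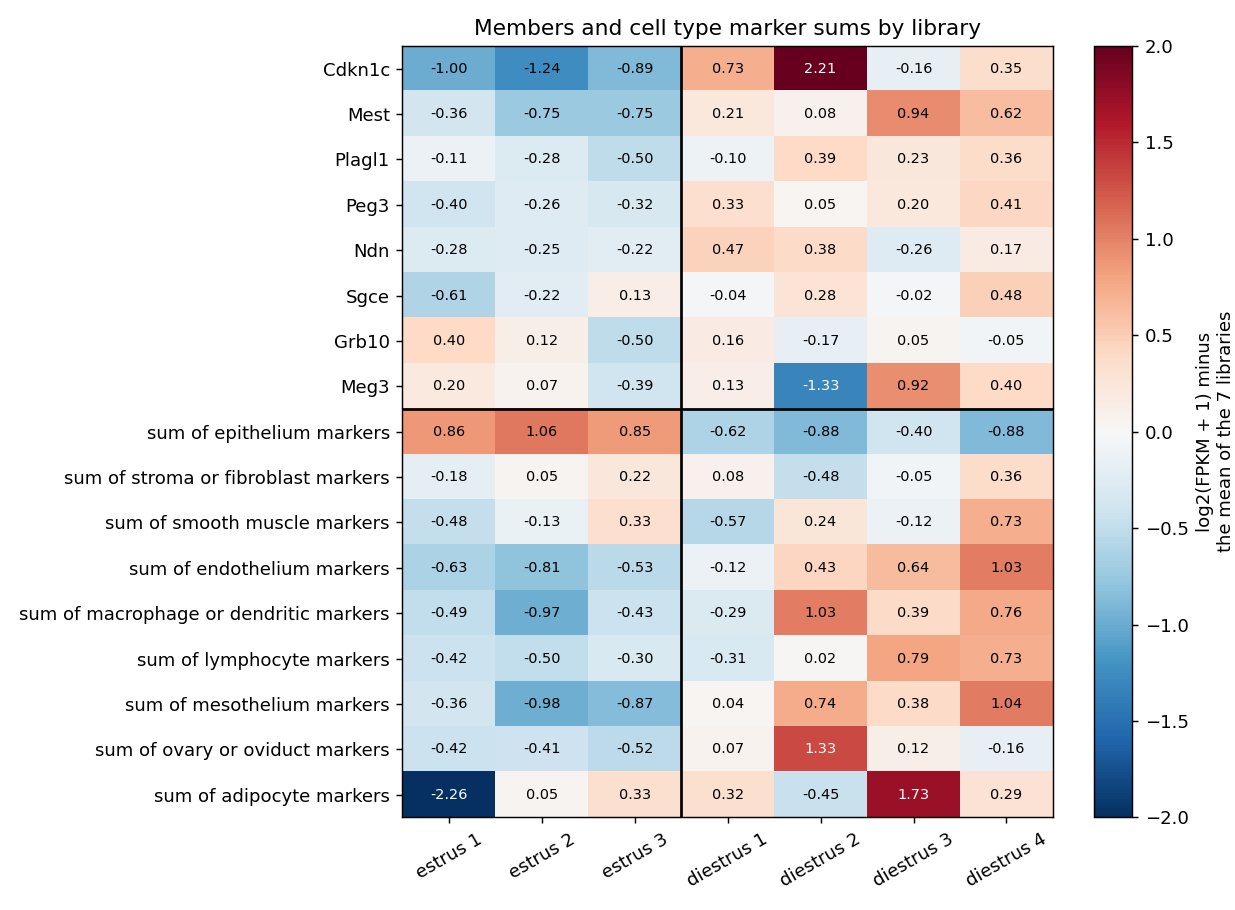
Log2(FPKM + 1) of the 8 tested members and of the summed markers of each cell type in the 7 libraries (columns, estrus left), each row minus its own mean over the libraries. Cdkn1c is highest and Meg3 lowest in diestrus replicate 2 (2.21 and -1.33), and Mest and Meg3 are highest in diestrus replicate 3 (0.94 and 0.92), where the adipocyte sum is also highest (1.73).

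The profiles of the members over the 7 libraries were compared by the root mean square difference of their log2 deviations from their own mean. Peg3 was closest to Plagl1 and Ndn, both at 0.25, and Meg3 and Cdkn1c the most distant, at 1.58. The genes searched were 10031 tested genes that averaged 5 FPKM or more. Rows named by accession numbers, Gm, Rik or similar names, and microRNA or small nucleolar RNA rows, were left out. In that pool the 3 closest to Cdkn1c were C1qtnf3, Mdk and Podxl2, at 0.20, 0.29 and 0.31. C1qtnf3 and the growth factor Mdk reached 79.1 and 331.6 FPKM in diestrus replicate 2, where they were also highest. Genes were picked here for a close profile, so high and low libraries shared with the member follow from that choice. The closest to Meg3 were Sox9 (0.09), Sdf2l1 (0.20) and Tmem125 (0.23). Sox9, a transcription factor of uterine glands among other tissues, stood at 22.2, 22.7 and 17.2 FPKM in estrus replicates 1 to 3, against 22.7, 7.42, 42.2 and 31.0 FPKM in diestrus replicates 1 to 4, with the same low and high libraries as Meg3. Tspyl2 and Dpp4 were among the closest to Mest, at 0.09 and 0.10. The closest to Peg3 were Hist3h2a, Fkbp9 and Apba3, and to Plagl1 Tchp, Terf2 and Ensa, at 0.07 to 0.09. No profile was sought for H19, which was at 0 in 5 libraries.

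Genes that share an imprinted domain with a member moved in different directions. Of 36 listed genes 35 had a row and 22 were tested, of which 4 rose and 4 fell, with a median log2 fold change of -0.11. By comparison, 17.2% of all 13920 tested genes rose and 14% fell. Igf2, the fetal growth factor expressed from the father next to H19, fell to 1.29, 1.42 and 1.71 FPKM in estrus replicates 1 to 3, against 5.06, 6.59, 4.64 and 5.83 FPKM in diestrus replicates 1 to 4 (log2 fold change -1.39, SE 0.15, limma adjusted p = 0.00157). Its stages were far apart, and it was called in all 7 fits that leave out 1 library. Peg10, a paternally expressed gene derived from a retrotransposon and needed in the placenta, rose to 4.50, 16.6 and 11.6 FPKM at estrus, against 1.89, 1.80, 1.65 and 1.42 FPKM at diestrus (log2 fold change 1.99, SE 0.36, limma adjusted p = 0.00725), and this too was called in all 7 fits. It starts 99 bases from Sgce on the other strand, and Sgce did not rise.

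Around Cdkn1c, the transcription factor Ascl2 (0.432 ± 0.090 FPKM at estrus and 1.90 ± 1.15 FPKM at diestrus, SD, n = 3 and 4) and the lipid transfer protein gene Osbpl5 (log2 fold change -0.41) fell, with limma adjusted p values of 0.0337 and 0.0485. Slc22a18, Kcnq1, Tssc4, Cd81 and Nap1l4 did not pass, with log2 fold changes of 0.52, -0.11, -0.38, -0.20 and 0.21. Around Ndn, Peg12 fell and the ubiquitin ligase gene Ube3a rose (log2 fold changes -0.55 and 0.61, limma adjusted p = 0.0355 and 0.0272), while Snurf and Atp10a did not pass (-0.18 and -0.39). Snrpn, which shares transcripts with Snurf, was listed at 0 in all libraries, so the values of Snurf are uncertain. Around Sgce, the paraoxonase Pon3 rose by 0.83 (limma adjusted p = 0.0268), and Ppp1r9a, Casd1, Asb4 and Pon2 had log2 fold changes of 0.07, 0.11, -0.37 and -0.11 and did not pass. Copg2, a coat protein gene beside Mest, rose by 0.54 (limma adjusted p = 0.0428), but not under median-ratio scaling, quantile normalization or no filter. In the Dlk1 to Meg3 domain, the noncoding RNA Rian and the thyroid hormone deiodinase Dio3 had log2 fold changes of 0.41 and 1.04 and did not pass (limma adjusted p = 0.416 and 0.089), and beside Grb10, Cobl had -1.05 (0.15). Of the 8 called genes of these domains, Igf2 and Peg10 alone were still called without estrus replicate 2. Of the 7 fits that leave out 1 library, Pon3 was called in 3 and Ube3a and Ascl2 in 2 each. Copg2, Peg12 and Osbpl5 were called in only 1 each.

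**Figure D3:**
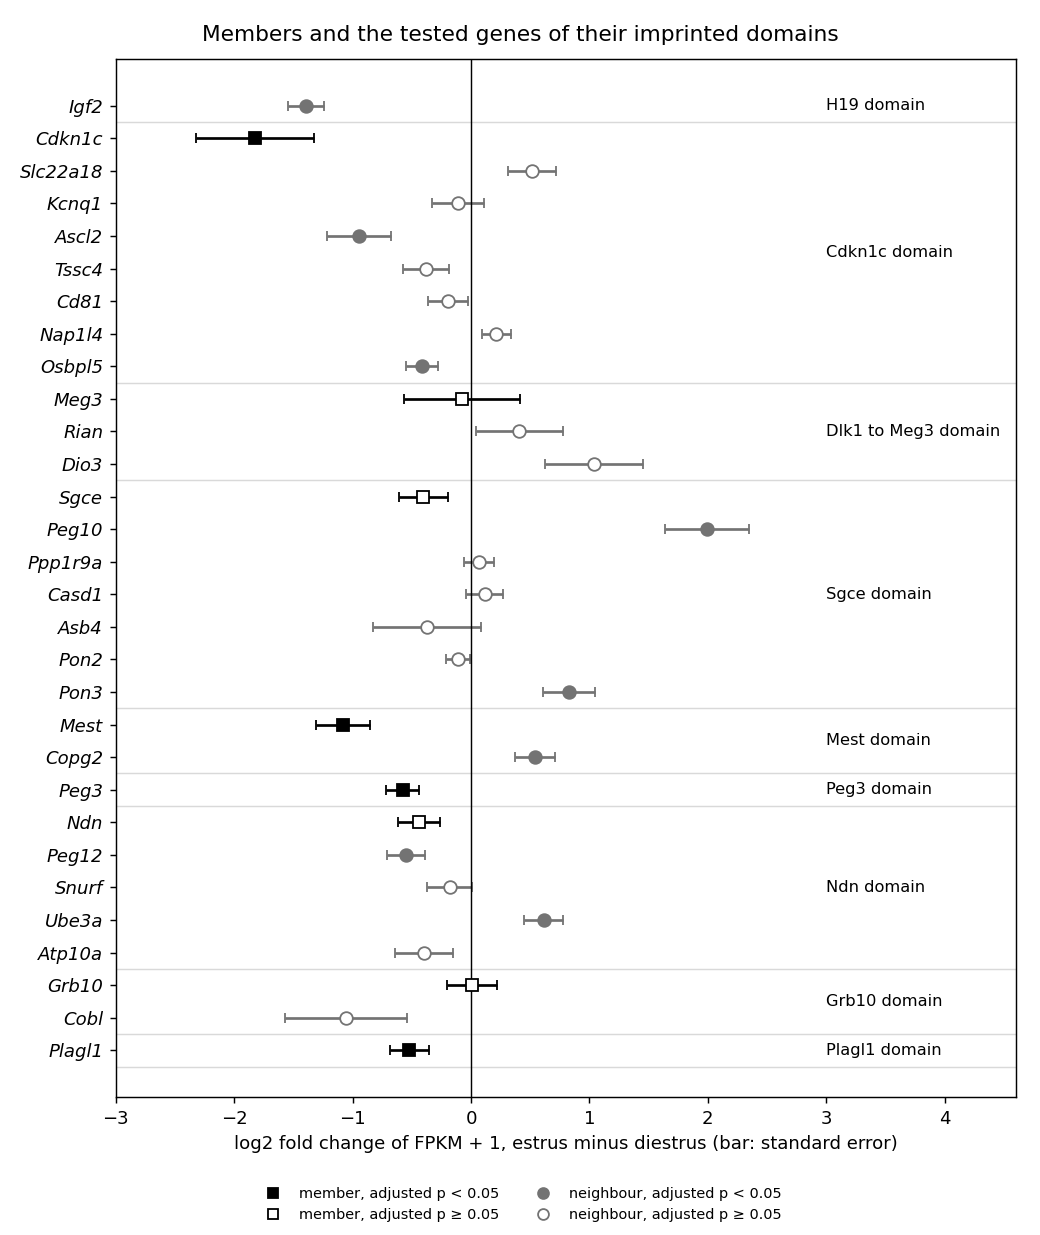
Log2 fold change of FPKM + 1, estrus minus diestrus, with its standard error, for the tested members (squares) and the tested genes of their imprinted domains with a mean of at least 1 FPKM (circles), grouped by domain; filled symbols passed a limma adjusted p under 0.05. Igf2 (-1.39) and Cdkn1c (-1.83) lie far left and Peg10 (1.99) far right, next to Sgce at -0.40.

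Tested members were set against the nearest tested gene of their domain, as the log2 ratio of FPKM + 1 in each library, which gave 6 pairs. Peg3 and Plagl1, which both fell, had no tested neighbour among the listed genes and are in no pair. The ratio of Sgce to Peg10 was 1.20 ± 0.66 at estrus and 3.60 ± 0.34 at diestrus (SD, n = 3 and 4), a difference of -2.40. Peg10 rose by 1.99 here, while Sgce had a log2 fold change of -0.40 and did not pass. The ratio of Cdkn1c to Slc22a18 was 0.47 ± 0.096 at estrus and 2.81 ± 0.89 at diestrus, a difference of -2.34, with single log2 fold changes of -1.83 and 0.52. The ratio of Mest to Copg2 was -1.87 ± 0.29 at estrus and -0.24 ± 0.62 at diestrus, a difference of -1.62, with single log2 fold changes of -1.08 and 0.54. In these 3 pairs every estrus library was below every diestrus library. The exact permutation p was 0.0286, or 0.0571 after Benjamini-Hochberg adjustment over the 6 pairs, so none passed the adjustment. Since 0.0286 is the smallest p that 35 assignments allow, 3 pairs alone at that value could not pass, and the adjusted values decide nothing. The ratios of Meg3 to Rian, Ndn to Peg12 and Grb10 to Cobl differed by -0.48, 0.11 and 1.06, with overlapping stages and adjusted permutation p values of 0.343, 0.629 and 0.257.

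**Figure D4:**
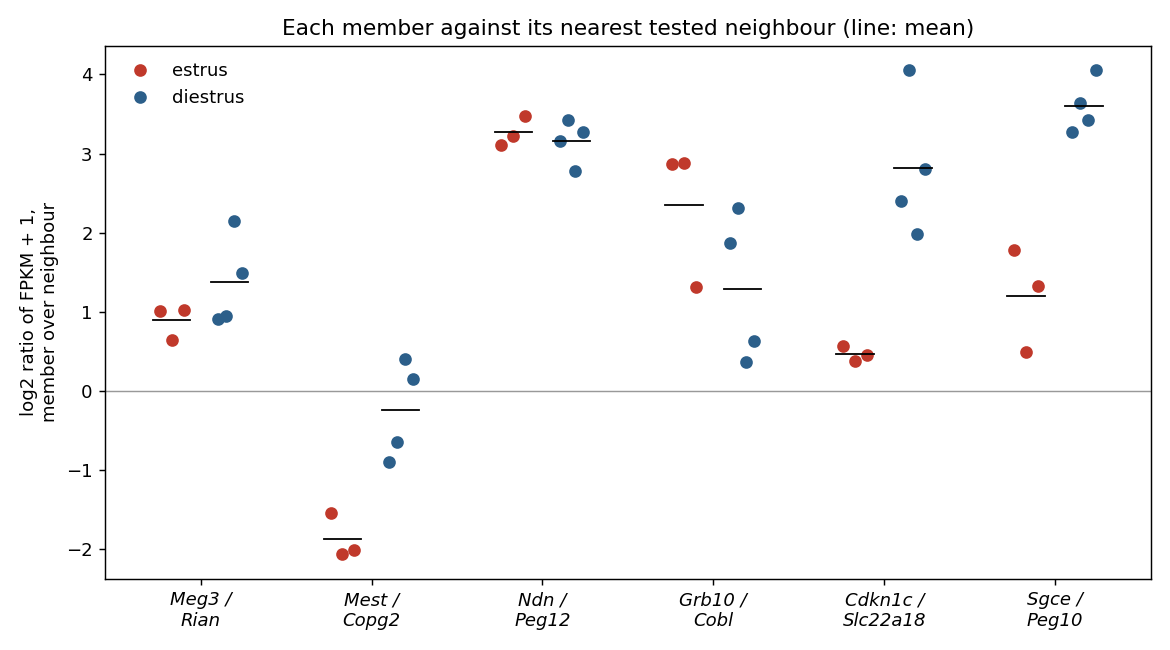
Log2 ratio of FPKM + 1 of the members with a tested domain neighbour over the nearest such neighbour, 1 point per library. Estrus is left and diestrus right in each pair, with the mean as a line. Peg3 and Plagl1 had no such neighbour. The stages are apart for Mest over Copg2, Cdkn1c over Slc22a18 and Sgce over Peg10, and overlap for the other pairs.

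Among 20 tested genes of other imprinted domains 3 rose and 7 fell, with a median log2 fold change of -0.20. The shares over all tested genes were 17.2% that rose and 14% that fell. Ampd3, an AMP deaminase, rose to 45.5 ± 2.59 FPKM at estrus, against 18.8 ± 1.88 FPKM at diestrus (SD, n = 3 and 4), with a log2 fold change of 1.23 and a limma adjusted p of 0.00128. Blcap rose by 0.63, and Zrsr1 and Inpp5f fell by 1.22 and 0.53 (adjusted p = 0.0136, 0.013 and 0.0152); these 3 were not called without estrus replicate 2 (adjusted p = 0.0646, 0.0602 and 0.0828).

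The genes that work with the members were read from the same fit, in which 17.2% of all tested genes rose and 14% fell. In the insulin and IGF list 1 of 19 tested genes rose and 5 fell (median -0.31). Grb7, an adaptor related to Grb10, rose to 59.2 ± 6.48 FPKM at estrus, against 31.3 ± 8.30 FPKM at diestrus (SD, n = 3 and 4; log2 fold change 0.92, limma adjusted p = 0.013), while Gigyf1, a partner of Grb10, and the binding protein Igfbp4 fell by 0.76 and 0.91 (adjusted p = 0.021 and 0.036). Gigyf1 was not called without estrus replicate 1 or 2 or diestrus replicate 3 or 4, nor Igfbp4 without any one estrus library or diestrus replicate 2 or 4 (without estrus replicate 2, adjusted p = 0.0931 and 0.137). Igf1r, Insr and Igf2r, the receptors of this system, had log2 fold changes of -0.84, -0.01 and -0.11 and did not pass.

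Among 14 tested cyclin-dependent kinase inhibitors, cyclins and kinases 2 rose and 1 fell (median 0.35). The shares over all tested genes were 17.2% and 14%. Cdkn1a, the p21 inhibitor of the same family as Cdkn1c, rose to 17.6, 16.8 and 20.8 FPKM in estrus replicates 1 to 3, against 5.69, 6.96, 7.10 and 11.7 FPKM in diestrus replicates 1 to 4 (log2 fold change 1.17, SE 0.22, limma adjusted p = 0.00864). Its stages did not overlap, and it was called in all 7 fits that leave out 1 library. Cdkn1b, the third inhibitor of that family, stood at 29.8, 31.7 and 30.4 FPKM at estrus, against 32.1, 30.9, 37.5 and 45.5 FPKM at diestrus, and did not pass (log2 fold change -0.23, adjusted p = 0.263). Cdkn2b rose by 1.06 and Ccnd2, a D cyclin, fell by 0.61 (adjusted p = 0.0347 and 0.0297), and neither was called without estrus replicate 2 (0.136 and 0.120) or 3 or diestrus replicate 3, nor Cdkn2b without diestrus replicate 2.

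In the Notch list, related to Dlk1 by its EGF-like repeats, 1 of 12 tested genes rose and 4 fell (median -0.16). For this and the lists that follow, the shares over all tested genes were 17.2% that rose and 14% that fell. The receptor Notch1 rose by 0.44 (limma adjusted p = 0.0431). Hes1 and Hey1, which are targets, and the ligands Jag1 and Dll4 did not pass (log2 fold changes 0.29, -0.11, -0.22 and 0.21). The targets Heyl and Hey2 fell by 0.88 and 0.92 (limma adjusted p = 0.00454 and 0.00478), and the ligands Dll1 and Jag2 by 0.92 and 0.74 (0.0119 and 0.03), the ligands not without estrus replicate 2 (0.0534 and 0.120), and Jag2 not without estrus replicate 3 or diestrus replicate 2 or 4 either. Among 9 sarcoglycan and dystrophin complex genes 1 rose and 2 fell (median -0.20): the dystroglycan gene Dag1 rose by 0.55 and Dtna and Sspn fell by 0.93 and 0.61 (adjusted p = 0.0119, 0.0218 and 0.0273), and without estrus replicate 2 none of the 3 was called (0.0741, 0.0803 and 0.120). Dtna and Sspn were also lost without estrus replicate 1 or diestrus replicate 4, and Sspn without diestrus replicate 2. Of 5 MAGE family genes Magee1 fell by 0.39 (adjusted p = 0.0428, lost in all fits that leave out 1 library but the one without diestrus replicate 1) and none rose (median -0.14). Plagl2, the tested relative of Plagl1, rose by 0.53 (adjusted p = 0.0156, or 0.0811 without estrus replicate 2). Among 10 hydrolases of the fold of Mest 1 rose and 2 fell (median 0.11): Abhd6 rose by 0.57, and Abhd3 and Abhd12 fell by 0.72 and 0.91 (adjusted p = 0.0116, 0.0081 and 0.00926), Abhd12 not without estrus replicate 2 (0.0523).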

How the data were processed

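RNA sequencing measured gene expression in 7 uterine libraries, 3 at estrus and 4 at diestrus, assigned by title. RNA from RNeasy columns went into Illumina TruSeq libraries, per the labels' protocols. The authors deposited FPKM values, 1 column per library; sample descriptions identified the columns, and 0 were left over. Per the submitters' processing notes, TopHat2 2.0.4 and mm10 were used in a role not stated. The source of the FPKM, the annotation and any use of strand are not given here.

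A gene was tested if 3 or more libraries reached 1 FPKM. The test was limma 3.58.1 (R 4.3.3) on log2(FPKM + 1) for estrus minus diestrus, with intensity-dependent moderation. Its two-sided p-values had Benjamini-Hochberg adjustment over all tested genes, with a threshold of 0.05. This scale understates changes of genes near 0. Single values were tested by exact permutation over the 35 possible assignments of the libraries. Coordinates are GENCODE M21 on GRCm38, the assembly called mm10. The members and lists were chosen with earlier results of these data known. Named genes are the members, the genes of their domains that averaged 1 FPKM or more, up to 4 called genes of each other list, and the 3 closest profiles, of which 1 is not reported here. The insulin and IGF receptors, Cdkn1b, Snrpn, further genes of the Notch list and single markers were added after their values were seen. The fit was tested on simulated data. Alternatives changed the pseudocount (0.1 or 5), the filter (none, or an average of 5 FPKM), the scaling (median-ratio or quantile), the moderation (no trend, or robust) or the libraries (1 left out), or added a replicate block. Figures were drawn with matplotlib 3.10.9.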

Additional observations from a re-analysis of the deposited data

Results flagged for a closer look

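In the diestrus group of 4, the highest or lowest library was compared with the rest by its gap to the nearest other library, divided by the range, on the log2(FPKM + 1) scale, against Dixon's limit. None of the 10 members passed it. Peg12 stood at 2.42 FPKM in diestrus replicate 1, against 1.58 to 1.68 FPKM in the other diestrus libraries, a gap of 0.868 of the range. Hey2 stood at 3.71 FPKM in diestrus replicate 1, against 4.65 to 4.81 FPKM in the other diestrus libraries, a gap of 0.867 of the range. Chance flags about 1 in 20 groups.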

How the results depend on the processing

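Of the 8 tested members, 4 changed as reported. With no filter on low values 2 did, and 0 to 4 did when single libraries were left out. The count over all genes, 4336, ran from 1433 (without estrus replicate 2) to 5311 (without diestrus replicate 1), and that over the listed partner and neighbour genes, 39, from 9 to 47; that listed count was 24 among genes that averaged 5 FPKM or more, where fewer genes were tested. Replicate numbers are shared between the stages, but the labels do not say that they pair the libraries. Deviations of same-numbered libraries correlated at 0.20, 0.02 and 0.17 across genes for numbers 1 to 3, and estrus replicates 2 and 3 correlated best with another number. With a replicate block limma called 2281 genes, 21 listed genes and 0 members, 3 of them at an unadjusted p under 0.05. Signs turned only in genes that did not pass. Meg3 was at 0.048 with the block and ran from -0.53 to 0.22 without single libraries. Grb10 was at -0.037 when scaled by median ratios, at -0.21 after quantile normalization and at -0.0084 in the blocked fit, and from -0.19 to 0.26 without single libraries. Nap1l4 and Casd1 were at -0.036 and -0.014 with quantile normalization, and Kcnq1 and Asb4 ran from -0.34 to 0.013 and from -0.62 to 0.028 without single libraries. The cause of these shifts was not tested. FPKM carry no counts, so how far depth limits H19 and Dlk1 is unknown.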
